A study of Caenorhabditis elegans with 2 samples.

Results

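The genes described here are 8 regulators and markers of the A and B classes of ventral cord motor neurons in *Caenorhabditis elegans*: vab-7, unc-4, unc-37, unc-3, ceh-12, unc-129, acr-5 and del-1. They were taken by name for their known roles in the program in which vab-7 acts, with earlier results of these data known. They are 8 of the 19973 protein-coding genes annotated on the 6 nuclear chromosomes. The study measured, by chromatin immunoprecipitation with sequencing (ChIP-seq), where an EGFP-tagged VAB-7 protein was recovered on chromatin of whole larvae. Strain RW12267 carries the insertion vab-7::TY1::EGFP::3xFLAG, made by CRISPR at the native gene on chromosome III, and an antibody against GFP was used. The larvae had been synchronised by starvation at the first larval stage after bleaching and were collected as L4 larvae at 47 hours. There was 1 group of 2 biological replicates, and no untagged or input sample was analysed here. Whether a peak depends on the tagged protein was therefore not tested.

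Locomotion of the worm depends on cholinergic motor neurons that come in dorsal and ventral pairs of classes, DA and VA for backward and DB and VB for forward movement. VAB-7, a homeodomain protein of the Even-skipped class, is known to give DB neurons their identity and to keep unc-4 off in them. UNC-4, a paired-like homeodomain protein of the A class, works with UNC-37, the Groucho corepressor, to keep B-class genes off in A-class neurons. UNC-3, a COE-type (EBF) factor, is a broad activator of cholinergic motor neuron genes, and CEH-12, related to HB9, is a VB factor that UNC-4 represses in VA neurons. The other members are effectors. UNC-129 is a ligand of the TGF-beta family made by dorsal muscle and by some of these neurons, ACR-5 is a subunit of nicotinic acetylcholine receptors, and DEL-1 is a DEG/ENaC channel subunit. The chromatin came from all cells of the larva, so binding in few cells and weak binding in many cells cannot be told apart.

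The data are lists of peaks on ce11, each with a summit, a signal from the authors' peak caller and a score made from the irreproducible discovery rate (IDR). Low IDR and high score stand for peaks that rank both high and alike in the 2 data sets compared. The list over both replicates at an IDR of up to 0.01, called the series list here, held 1815 peaks, a conservative list 1732, and the lists of replicates 1 and 2 held 1014 and 1119. Ranked lists go far below this threshold, and the pooled one held 88007 peaks. Read depth is unknown, since the lists carry no counts, and the signal has no stated normalization, so signals were compared only within a list. A gene was called here when a summit lay between 5 kb upstream of its annotated 5′ end and the end of the gene. By this rule 2 of the 8 genes were called in the series list, vab-7 and unc-3, against 12.7% of all protein-coding genes. Over 8 genes the count of 2 is close to that background and is not a result about these genes as a set. The conservative list called the same 2 genes, with 12.3% of all genes called. Where the call lay depended on the window. With 2 kb upstream 1 gene was called, unc-3 (8.73% of all genes), and likewise with 1 kb (7.12%). With the gene body left out it was vab-7 alone (10.3%). In the upper 50% of the list by signal none of the 8 was called (7.22%), and with windows ended at the nearest other protein-coding gene both remained (8.21%).

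The sequences under the peaks that carry these calls are given on the strand of the gene, from 100 bases before the summit to 100 bases after it. Capitals mark TAATTA or TAATGA on either strand, words with the TAAT core that many homeodomains recognise.
vab-7, summit 2476 bp upstream, chrIII:10917768-10917968, plus strand: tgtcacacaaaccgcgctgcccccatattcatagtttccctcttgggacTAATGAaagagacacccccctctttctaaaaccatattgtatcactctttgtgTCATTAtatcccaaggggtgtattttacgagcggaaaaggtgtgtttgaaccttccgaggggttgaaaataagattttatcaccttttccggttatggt
unc-3, summit in intron 1, chrX:14776428-14776628, plus strand: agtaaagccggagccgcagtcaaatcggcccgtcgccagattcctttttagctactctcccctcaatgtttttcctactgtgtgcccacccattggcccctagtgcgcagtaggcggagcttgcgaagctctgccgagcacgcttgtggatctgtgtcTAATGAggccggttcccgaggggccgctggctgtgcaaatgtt
At vab-7 the word TCATTA, the reverse complement of TAATGA, begins 2 bases after the summit, and TAATGA begins 51 bases before it. At unc-3 a TAATGA begins 58 bases after the summit. Up to 50 bases either side of the summit, TAATTA or TAATGA occurred in 4.30% of the 1815 peaks of the series list, with the vab-7 peak among them and the unc-3 peak not. Up to 100 bases either side it occurred in 10.6%, both peaks included. GC content over the printed bases was 42.8% at vab-7 and 57.7% at unc-3, with a median of 46.3% over the series list. The TAAT core alone occurred in 65.1% of the series list over the same length. The words describe these letters only and do not show contact with the factor.

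The peak at vab-7 itself lay in the gap between the cuticlin gene cut-6 and vab-7, from 10917716 to 10918019 on chromosome III, upstream of the gene (WBGene00006873, 10920344 to 10926041, plus strand). Its summit was 1203 bp beyond the 3′ end of cut-6, and the nearest annotated 5′ end was that of vab-7. No tRNA, snoRNA or snRNA gene lay nearer than 43982 bp. Its signal was 89.8, above 34.2% of the series list, with a score of 1000 and a global IDR of 0.00218 in the pooled ranking. In the ranking that compares the replicates the IDR was 0.00342. The replicates placed the summit within 8 bp of the pooled position, at 2479 bp upstream in replicate 1 and 2484 bp upstream in replicate 2. The signal was 45.2 in replicate 1, above 96.6% of its ranked peaks, and 41.2 in replicate 2, above 97.3%. The IDR was 0.156 in replicate 1 and 0.00691 in replicate 2, so the peak passed 0.01 in the list of replicate 2 and missed it in that of replicate 1.

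The vab-7 window held 14 pooled ranked summits, 7 upstream and 7 inside the gene. After the peak upstream, the strongest were 2 in intron 2, an intron of 1991 bp. Their signals were 61.5 at 1526 bp and 53.6 at 2324 bp downstream of the 5′ end, above 96.3% and 94.1% of the pooled ranked peaks. The pooled IDR of these intron summits was 0.677 and 0.270, whereas the ranking that compares the replicates gave them 0.0289 and 0.0343. Both missed 0.01 in either ranking and passed 0.05 only in the second. Near the first, replicate 1 had a signal of 37.4 at 1523 bp and replicate 2 one of 26.3 at 1518 bp. Near the second, replicate 1 had 33.9 at 2324 bp and replicate 2 had 30.1 at 2392 bp. Neither sequence holds TAATTA or TAATGA, although each holds 3 TAAT cores. They are shown because they are the strongest by signal inside the gene that encodes the tagged protein.
vab-7, intron 2 at 1526 bp, chrIII:10921770-10921970, plus strand: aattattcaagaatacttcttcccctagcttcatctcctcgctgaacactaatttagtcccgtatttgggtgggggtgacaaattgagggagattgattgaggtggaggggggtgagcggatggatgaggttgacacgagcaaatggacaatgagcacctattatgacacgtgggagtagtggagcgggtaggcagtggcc
vab-7, intron 2 at 2324 bp, chrIII:10922568-10922768, plus strand: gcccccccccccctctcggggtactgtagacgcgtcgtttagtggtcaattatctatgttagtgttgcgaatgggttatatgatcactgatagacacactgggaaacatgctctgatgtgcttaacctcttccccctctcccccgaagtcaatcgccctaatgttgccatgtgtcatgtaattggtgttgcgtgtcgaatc
By pooled IDR, the next after the peak upstream was another summit in intron 2, at 3133 bp (signal 24.1). Its IDR was 0.113 in the pooled ranking and 0.868 in the ranking that compares the replicates. The summit nearest to the 5′ end, 96 bp upstream, had a signal of 40.04 and an IDR of 0.527.

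**Figure D1:**
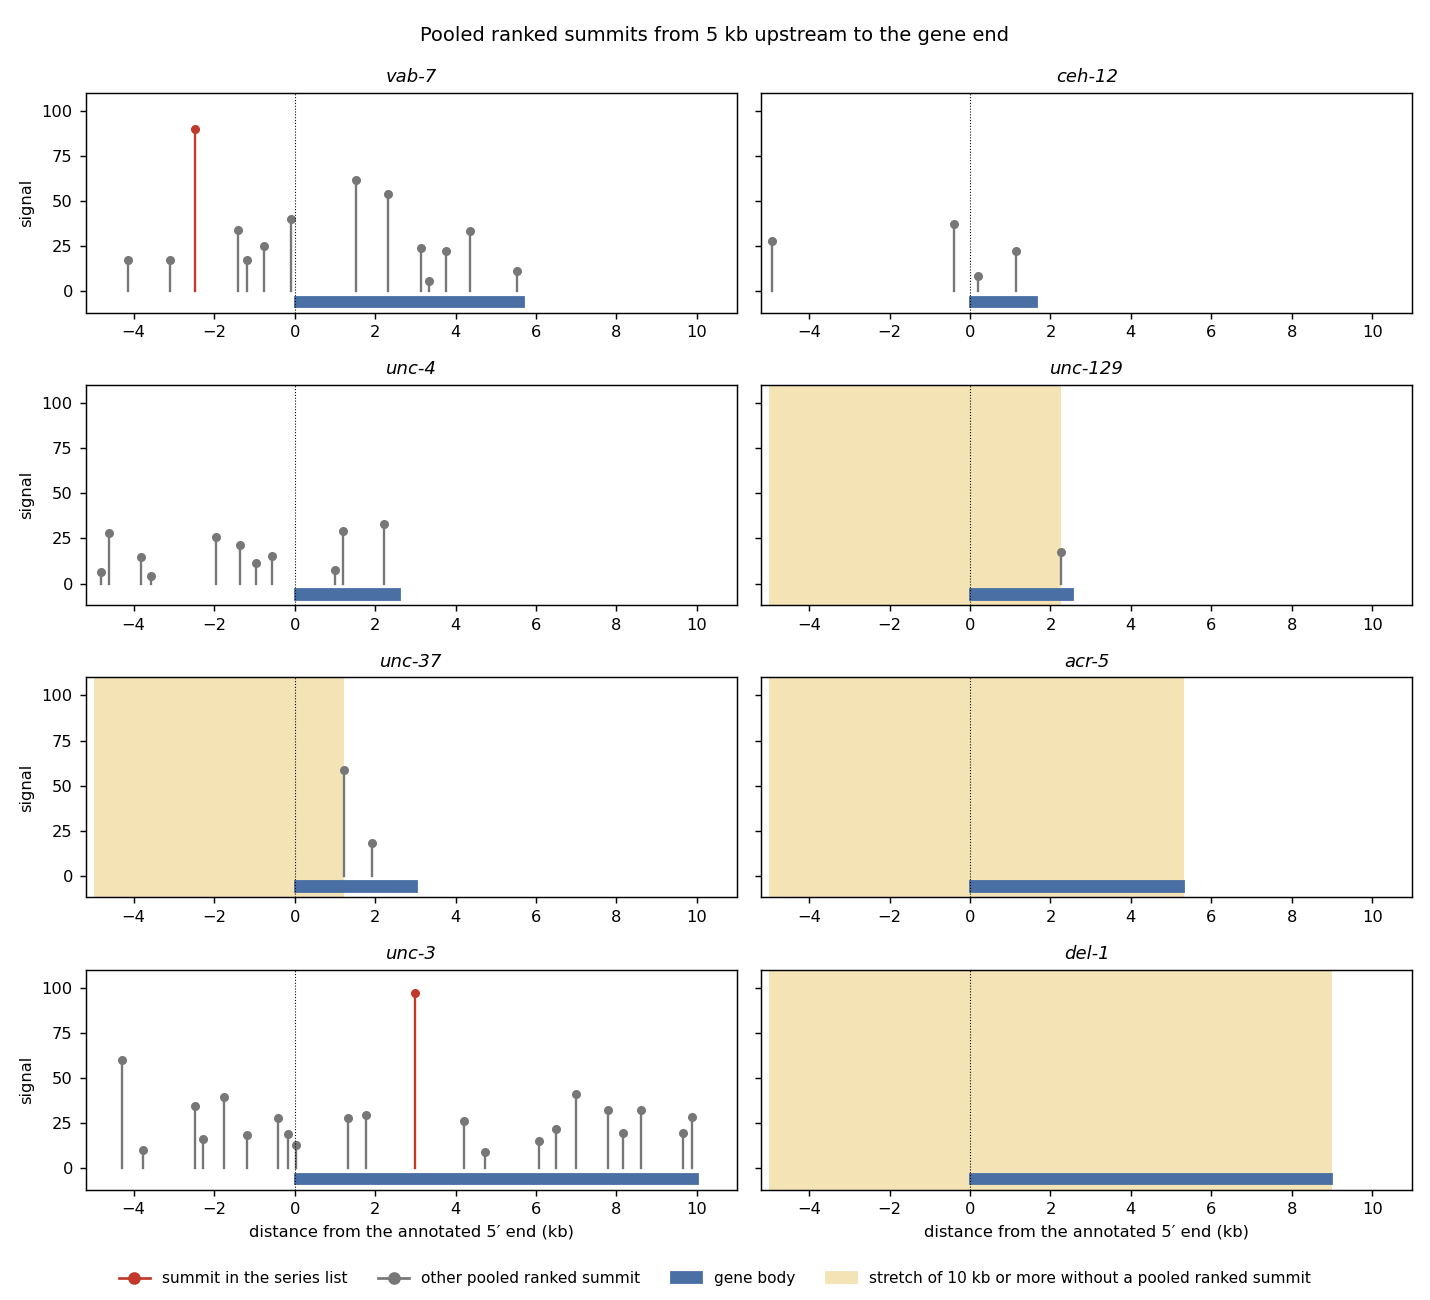
Pooled ranked summits in the window of each gene, with distance from the annotated 5′ end in kb across and the signal of the peak caller up. Red marks the summits in the series list, 89.8 at vab-7 and 97.1 at unc-3, blue bars the gene bodies, and shading the stretches of 10 kb or more that hold no pooled ranked summit, which take all of the acr-5 and del-1 windows.

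The unc-3 gene (WBGene00006743, chromosome X, 14773538 to 14783568, plus strand) had the highest signal of the 8 in the pooled lists and in replicate 1, whereas vab-7 had it in replicate 2. Its peak, from 14776376 to 14776679, had its summit 2990 bp downstream of the 5′ end, inside intron 1, which is 2979 bp long. The signal was 97.1, above 41.4% of the series list, and the global IDR 0.00150 in the pooled ranking and 0.00176 in the ranking that compares the replicates. Replicate 1 had a signal of 58.0 with an IDR of 0.00720, and replicate 2 had 37.9 with an IDR of 0.0703, so here the list of replicate 1 held the peak and that of replicate 2 did not. The summit lay at 2991 bp in replicate 1 and at 3056 bp in replicate 2. The nearest tRNA gene was 28349 bp away. The vab-7 and unc-3 peaks were each in 1 replicate's list only. By overlap of at least 1 base, the same held for 13.5% (replicate 1 only) and 17.6% (replicate 2 only) of the series peaks. Both lists held 38.5% of the series peaks, and neither held 30.4%.

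The unc-3 window was the longest, 15031 bp, and held 22 pooled ranked summits, 8 of them upstream and 8 in introns. The second strongest of them, 4300 bp upstream, had a signal of 59.9 and an IDR of 0.531 in the pooled ranking and of 0.0631 in the ranking that compares the replicates. It also lies within the neighbouring gene Y16B4A.2, whose body begins 1687 bp upstream of unc-3 on the other strand. So do the pooled ranked summits at 1748, 2277, 2479 and 3763 bp upstream. The summit nearest to the unc-3 5′ end lay 27 bp downstream with a signal of 13.1. By presence in each of the 4 thresholded lists and then by signal, the genes most like unc-3 were Y16B4A.2, which shares its peak, zipt-15 (97.5) and Y57A10C.9 (97.5), among 251 genes with the same pattern. Those most like vab-7 among 359 were knl-1, which encodes a kinetochore protein, C02F5.10 and F09G8.5, which share 1 peak with a signal of 89.6, with the summit 184 bp upstream of knl-1.

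At unc-4, the gene that VAB-7 is known to keep off in DB neurons, no summit passed in any of the 4 thresholded lists. The gene (WBGene00006744) lies on chromosome II from 9897751 to 9900376 on the minus strand. Its window of 7.63 kb held 11 pooled ranked summits, 8 upstream and 3 inside the gene, with signals of 4.21 to 32.96 and a median of 15.01. Their IDR ranged between 0.619 and 0.848, where 0.848 is the highest IDR of any pooled ranked summit at the 8 genes. The strongest of them lay in a coding exon 2229 bp downstream of the 5′ end, above 73.5% of the pooled ranked peaks. Of all protein-coding genes, 32.6% had a weaker strongest summit or no summit. The replicates did not have the same summits at unc-4: replicate 1 had 1, in a coding exon at 2240 bp (signal 23.6), and replicate 2 had 5, the strongest of them 4620 bp upstream (signal 21.5). That summit lies within the neighbouring protein-coding gene F26C11.3, whose nearer edge is 2681 bp upstream of unc-4. So do the pooled ranked summits at 3581, 3832, 4612 and 4817 bp upstream. The strongest pooled ranked summit is shown, with the one 1353 bp upstream (signal 21.1, IDR 0.848). The latter was the sole pooled ranked summit of unc-4 with TAATTA or TAATGA up to 50 bases either side.
unc-4, coding exon, chrII:9898047-9898247, minus strand: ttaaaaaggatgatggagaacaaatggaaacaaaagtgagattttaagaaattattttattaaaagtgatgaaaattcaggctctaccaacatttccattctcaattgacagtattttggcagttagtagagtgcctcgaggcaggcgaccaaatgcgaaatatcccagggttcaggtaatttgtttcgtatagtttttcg
unc-4, 1353 bp upstream, chrII:9901629-9901829, minus strand: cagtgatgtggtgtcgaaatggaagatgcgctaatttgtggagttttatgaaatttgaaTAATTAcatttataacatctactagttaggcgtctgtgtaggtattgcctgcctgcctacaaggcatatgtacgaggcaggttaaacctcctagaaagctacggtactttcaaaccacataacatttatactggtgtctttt

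The partner of UNC-4 and the VB factor were not called either. At unc-37 (WBGene00006773, chromosome I, 6742299 to 6745329, minus strand) the pooled ranking held 2 summits, both in coding exons. The stronger had a signal of 58.5, above 95.6% of the pooled ranked peaks, and lay 1228 bp downstream of the 5′ end. It had an IDR of 0.157 in the pooled ranking and of 0.675 in the ranking that compares the replicates. Its signal was 40.05 in replicate 1, above 94.7% of its ranked peaks, but 12.5 in replicate 2, above 38.3%, so the replicates differed widely in its rank. Replicate 1 also had a summit 268 bp upstream of unc-37 (signal 33.6, IDR 0.486), between this gene and fnci-1, whose nearer edge is 662 bp upstream. At ceh-12 (WBGene00000436, chromosome I, 5840282 to 5841940, plus strand) the pooled ranking held 4 summits. The strongest, 387 bp upstream, had a signal of 37.2 and an IDR of 0.470. It was found at 401 bp upstream in replicate 1 (signal 20.1, IDR 0.901) and at 377 bp upstream in replicate 2 (17.2, IDR 0.916).

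**Figure D2:**
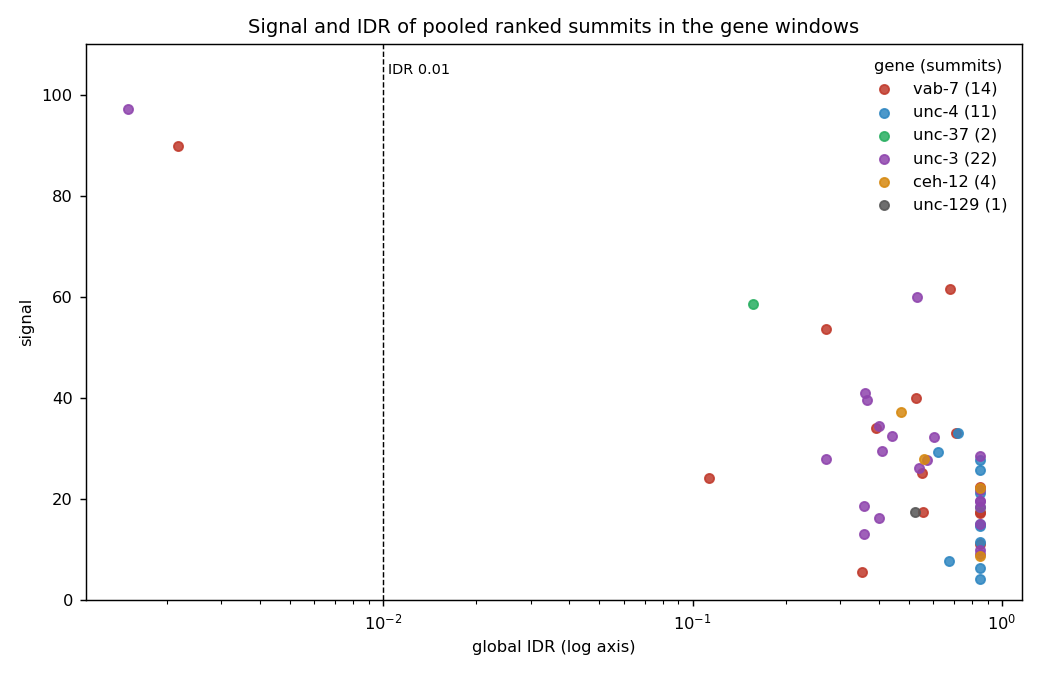
Signal against global IDR, on a log axis, for the 54 pooled ranked summits in the gene windows, coloured by gene. The 2 points left of the dashed line at 0.01 are the peaks of unc-3 and vab-7, and the lowest IDR among the others is 0.113, at vab-7.

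The effector genes had few pooled ranked summits. The window of unc-129 (WBGene00006852, chromosome IV, 9002839 to 9005410, minus strand) held 1, in a coding exon 2252 bp downstream of the 5′ end, with a signal of 17.4 and an IDR of 0.524. Replicate 2 had 5 summits at unc-129, with signals up to 13.5 and 1 of them 188 bp upstream, and replicate 1 had none. The windows of acr-5 (WBGene00000044, chromosome III, 6509445 to 6514773, minus strand) and del-1 (WBGene00000952, chromosome X, 14268081 to 14277082, plus strand) held none. In the del-1 window replicate 1 alone had ranked summits, 5 in introns, led by 1 at 1834 bp with a signal of 31.4 and an IDR of 0.552. Of the 8 genes, 6 had at least 1 pooled ranked summit in the window, against 79.1% of all genes. The ranking that compares the replicates had summits at 5 of the 8 (78.8% of all genes), and the ranked lists of replicate 1 and of replicate 2 at 7 each (83.0% and 83.3% of all genes).

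The windows of acr-5 and del-1 lay wholly in long stretches without any pooled ranked summit. Such stretches also covered the upstream part and the start of unc-129 and unc-37, up to 2251 bp and 1227 bp downstream of their 5′ ends. The stretch that covers the 5′ end spanned 64.4 kb at unc-129, 61.7 kb at acr-5, 41.2 kb at del-1 and 11.9 kb at unc-37. Gaps between neighbouring pooled ranked summits had a median of 622 bp, yet 1511 gaps of 10 kb or more took up 32.7% of the genome. Such gaps covered 100% of the windows of acr-5 and del-1, 95.8% of that of unc-129 and 77.5% of that of unc-37, and none of the windows of vab-7, unc-4, unc-3 and ceh-12. The ranked lists of the replicates had such gaps as well, over 27.2% of the genome in each, but not at the same places, as the summits of replicate 1 at del-1 and of replicate 2 at unc-129 show. At acr-5 and del-1, and upstream of unc-129 and unc-37, the absence of a pooled peak therefore cannot be told apart from the absence of ranked peaks over the whole stretch. The summits inside unc-37 and unc-129 were ranked and missed 0.01. Why the ranked lists hold such gaps was not tested, and whether the lists used here hold every ranked peak is not known. The counts and densities of ranked summits, over the 8 genes and over all genes, carry that limit.

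The acr-5 gene gives a case where this mattered. The list of replicate 2 held a peak inside intron 3 of acr-5, from 6513820 to 6514083, with a signal of 37.4, a score of 847 and an IDR of 0.00912. The summit, 821 bp downstream of the 5′ end, lay inside a serine tRNA gene of 82 bp, K03F8.t1 (6513937 to 6514018), on the same strand as acr-5. The sequence is shown with GGTTCGA in capitals, the core of the B box that RNA polymerase III genes for tRNAs carry inside the transcribed part. It was searched on both strands.
acr-5, intron 3, chrIII:6513852-6514052, minus strand: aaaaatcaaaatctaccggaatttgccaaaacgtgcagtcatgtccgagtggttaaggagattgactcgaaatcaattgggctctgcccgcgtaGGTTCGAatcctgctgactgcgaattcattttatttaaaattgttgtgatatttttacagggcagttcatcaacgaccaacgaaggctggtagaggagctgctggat
This word occurred over this length in 23.8% of the 1119 peaks of replicate 2 and in 18.2% of the series list. No TAAT core lies in the printed bases. The window of acr-5 held 1 more ranked summit in replicate 2, 589 bp upstream (signal 20.8, IDR 0.916). In replicate 1 the acr-5 window held 1 ranked summit, 5047 bp downstream of the 5′ end (signal 23.6, IDR 0.528), and none at the tRNA gene. In the list of replicate 2, 2 of the 8 genes were called, vab-7 and acr-5, against 8.59% of all genes, and in that of replicate 1 it was 1, unc-3, against 7.72%. Of the 1119 peaks of replicate 2, 37 overlapped no pooled ranked peak, and 35 of these lay in gaps of 10 kb or more. For replicate 1 it was 20 of 1014 peaks, 19 of them in such gaps.

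**Figure D3:**
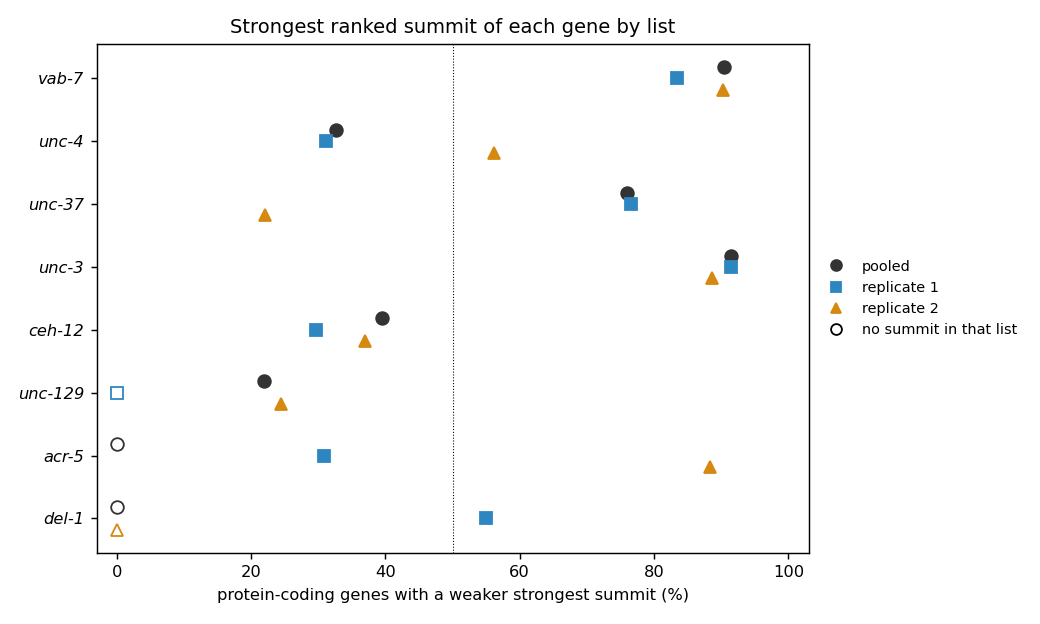
Share of all protein-coding genes whose strongest ranked summit is weaker than that of the named gene, in percent, for the pooled list, replicate 1 and replicate 2, with open symbols for genes without a summit in that list. vab-7 and unc-3 lie at 83.4% or above in each list, while unc-37 (76.5% in replicate 1 and 22.1% in replicate 2) and acr-5 (30.9% and 88.4%) lie far apart between replicates.

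Set against all genes under the same rule, the 8 genes stood on both sides of the middle. The strongest pooled ranked summit exceeded that of 91.5% of genes for unc-3, 90.4% for vab-7, 75.9% for unc-37, 39.5% for ceh-12, 32.6% for unc-4 and 21.9% for unc-129. Genes without a pooled ranked summit counted as 0 in these shares. Only 79.1% of all genes had one, so any gene with a summit exceeded all the rest. The shares of unc-129 and unc-4 thus consist largely of genes without a summit. The median of the strongest signal was 35.1 over the 8 genes, acr-5 and del-1 counted as 0, and 42.7 over all genes, and 3 of the 8 lay above the median of all genes. In order of signal, unc-3 and vab-7 cannot be separated, since vab-7 was higher in rank in replicate 2 and unc-3 in replicate 1. The windows of the 8 genes had a median length of 9.18 kb and those of all genes one of 7.03 kb. Pooled ranked summits numbered 54 in 79.9 kb, or 0.675 per kb, against 0.902 per kb in the windows of all genes. In replicate 1 the density was 0.575 per kb at the 8 genes and 0.713 at all genes, and in replicate 2 it was 0.500 and 0.504, so the lower density at the 8 genes was nearly absent in replicate 2. The density was 1.31 per kb at vab-7, 1.44 at unc-4 and 1.46 at unc-3, above that of all genes, and from 0 to 0.601 at the other 5. The windows of vab-7, unc-4, unc-3 and ceh-12 held no part of a gap of 10 kb or more. The density over all genes includes such gaps, which took up 32.7% of the genome, so these values are not on an equal footing. At unc-4 the density was 0.131 per kb in replicate 1 and 0.656 in replicate 2. Of the 54 summits, 25 were upstream, 16 in introns, 10 in coding exons and 3 in untranslated regions. Some of those upstream lay inside a neighbouring gene, as at unc-4 and unc-3. Of the 54, 5 (9.26%) had TAATTA or TAATGA up to 50 bases either side, against 7.37% of all 88007 pooled ranked summits.

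**Figure D4:**
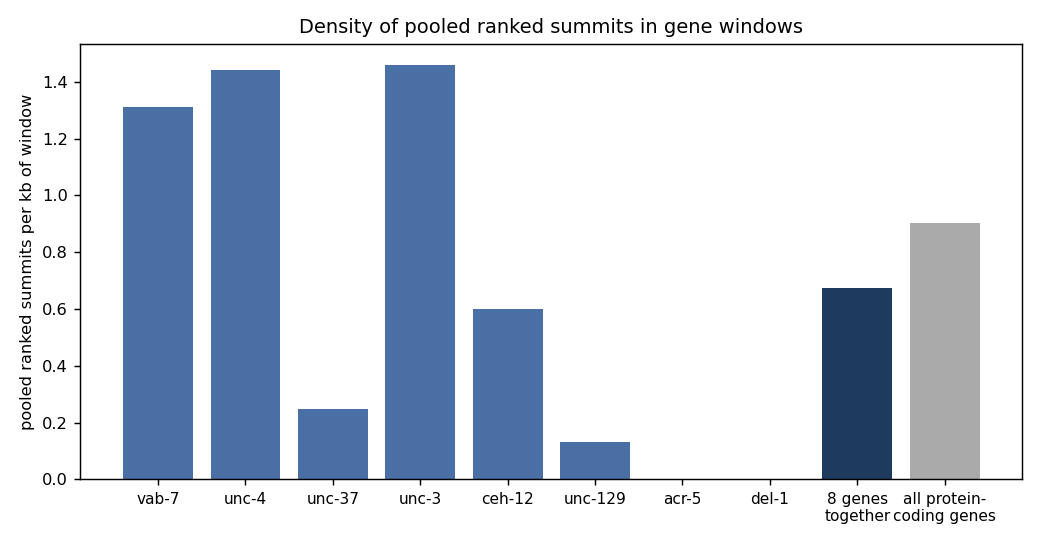
Pooled ranked summits per kb of window, from 5 kb upstream to the gene end, for each gene, for the 8 genes together (0.675) and for all protein-coding genes (0.902). Bars start at 0, and acr-5 and del-1 have none.

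The wider pathway was described with 5 lists of genes, of which 76 of 79 names matched the annotation. Together they had 13 genes called in the series list (17.1%), against 12.7% of all genes, with a median window of 9.86 kb against 7.03 kb. Among 14 regulators of A and B motor neurons, 4 were called (28.6%, against 12.7% of all genes), with a median window of 10.5 kb. Beside vab-7 and unc-3 these were lsy-22, known as a corepressor partner of UNC-37 (signal 120), and the Hox gene lin-39 (89.1, in an intron). The lsy-22 summit lay 321 bp upstream of that gene and 2 bp from a tRNA gene. The lin-39 peak was in neither replicate's list, and nor were those of unc-17 and cha-1, nlp-21, unc-40 and unc-44 or the weaker peak of acr-18, described next.

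Among 28 effectors of cholinergic motor neurons 4 were called (14.3%, against 12.7% of all genes), acr-18, unc-17, cha-1 and nlp-21. The peaks of acr-18, an acetylcholine receptor subunit gene (141 and 93.0), both had summits inside tRNA genes in its introns. The genes of the cholinergic locus, unc-17 for the vesicular acetylcholine transporter and cha-1 for choline acetyltransferase, overlap and shared 1 peak with a signal of 75.6. The neuropeptide gene nlp-21 had intron peaks of 73.7 and 71.4. Among 15 genes of the guidance pathway of UNC-129, 5 were called (33.3%, against 12.7% of all genes). This list had the longest median window of the 5 lists, longer also than that of all genes. Whether window length accounts for its share was not tested. The 5 called genes were unc-115 (199 for its strongest peak), unc-33 (165), slt-1 (112), unc-44 (88.1) and unc-40 (85.8). UNC-40 is a netrin receptor, SLT-1 the Slit ligand, UNC-44 an ankyrin, UNC-33 a CRMP-like protein and UNC-115 an actin-binding protein. The unc-40 summit, 280 bp upstream, lay 15263 bp from the nearest tRNA, snoRNA or snRNA gene, and that of unc-44, 1282 bp upstream, 7043 bp, whereas those of unc-33 and slt-1 and the strongest of unc-115 lay within 20 bp of one. None of 10 GABA motor neuron genes was called, and of 15 posterior patterning genes 2 were (13.3%), vab-7 and lin-39, beside 12.7% of all genes. Of the 17 different summits behind all these calls, 7 lay within 200 bp of a tRNA gene. Both acr-18 and unc-115 gave more than 1 of the 7. Over the whole series list, 420 of 1815 summits lay so near (23.1%), a smaller share, but 17 summits are few.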

How the data were processed

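ChIP-seq peaks of 2 replicates on ce11 were used as deposited, per the labels and the text files deposited with the samples. The deposited score is the authors' rescaling of the IDR, the deposited signal is the value of their peak caller with no stated normalization, and the deposited −log10 of the global IDR in ranked lists was converted back to an IDR. Pooled lists were derived from both replicates' alignments, per the deposited text files. Peak caller, aligner and versions are not named in the labels or files used here. All 5680 thresholded peaks were found in their ranked lists. Summits are peak start plus offset, written 1-based. Genes came from Ensembl release 115 on WBcel235, which shares ce11 coordinates, and sequence and tRNA identity from RefSeq on the same build. The list names ceh-44, unc-74 and nca-1 had no match. No test was run: there is 1 group, and members and lists were chosen with earlier results of these data known. Percentiles give the share of peaks or genes that are lower. Up to 4 genes per list were named by highest signal (unc-40 completes its count and was added after its value was seen), with members, neighbours at peaks and the 3 genes most like a called member. The window rule was tested on planted summits. Python 3.11.15, numpy 2.4.6 and matplotlib 3.10.9 were used.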

Additional observations from a re-analysis of the deposited data

How the results depend on the processing

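Of the 8 genes, 2 were called in the series list. That number was also 2 in the conservative list, with windows of 10 kb upstream and with windows ended at the nearest other gene. It was 2 as well when any base of a peak counted, against 13.1% of all genes. An alternative added after the long gaps had been seen kept only genes with a pooled ranked summit (6 of the 8 genes). There 2 of the 6 were called, against 2534 of the 15790 genes with such a summit. The number called of the 8 was 1 with 2 kb upstream and 1 with 1 kb upstream (unc-3). It was 1 with the gene body left out (vab-7), and 0 in the upper 50% of the series list by signal. In the list of replicate 1 it was 1, unc-3 (7.72% of all genes). In that of replicate 2 it was 2, vab-7 and acr-5 (8.59%), so neither list called both vab-7 and unc-3. The shares of all genes called ranged from 7.12% with 1 kb upstream to 18.6% with 10 kb. Over the pathway lists, which include the 8 genes, 13 of 76 genes were called (17.1%, against 12.7% of all genes). It was 14 in the conservative list (18.4% against 12.3%) and 11 with 1 kb upstream (14.5% against 7.12%). In replicate 1 alone it was 5 (6.58% against 7.72%) and in replicate 2 alone 6 (7.89% against 8.59%), below the share of all genes in each. The median over the 8 genes of the share of genes with a weaker strongest summit was 36.1%, and it was 48.0% with 2 kb upstream, 17.1% without the gene body and 43.1% to 46.6% in 1 replicate alone. The density was 0.675 per kb against 0.902 over all genes, 0.751 against 0.928 with 2 kb upstream, 0.575 against 0.713 in replicate 1 alone and 0.500 against 0.504 in replicate 2 alone. The cause of these changes was not tested. No paired analysis was possible because there is 1 group. Without reads, how depth limits a call is unknown.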
